A study of Rattus norvegicus with 28 samples.

Results

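The interferon response genes described here are the 51 rat genes whose name on the array belongs to the interferon families: the interferons themselves (Ifna, Ifnb, Ifng, Ifnk), their receptors, the interferon regulatory factors (Irf) and STAT factors of the pathway, and the induced Ifi, Ifit, Ifitm, Oas, Mx, Isg, Gbp, Usp18 and Rsad2 genes. They were chosen by gene name alone, out of 35469 genes and unnamed transcripts (features) measured on 28 one-colour microarrays of rat spinal cord. By role, 17 are antiviral effectors, 11 transcription factors, 5 Ifitm genes, 5 interferons, 3 receptors, 3 Gbp genes and 7 other Ifi genes. The signal of 34 of the 51 was well above the local background on all 28 arrays, and that of 2 (Oas1d and Ifnk) on none.

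All animals were adult female Sprague Dawley rats, and each group held 4 arrays. T0 is the uninjured cord, which the sample labels call sham. T1, T2, T4 and T8 are cords taken 1, 2, 4 and 8 weeks after a severe contusion of 250 kdyn at the thoracic level, as a 1.5 cm segment around the epicentre without the dura. T1_NPC is the cord taken at 1 week of rats that received neural progenitor cells (NPC) straight after the contusion, and T2_NPC the cord taken at 2 weeks of rats that received them 1 week after it. The NPC were cultured as neurospheres from the injured cord of adult rats. The paper's methods list tacrolimus (FK-506), which suppresses T cells, in the care of all animals, timed from the day before transplantation, and say that injured controls were injected with medium without cells. They give no timing of the drug for groups that had no transplantation. The paper calls the 4 arrays of a group biological replicates.

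Interferons are cytokines that cells release on sensing foreign or misplaced nucleic acid. Type I interferons (Ifna, Ifnb) bind the Ifnar receptor and pass the signal through STAT factors and Irf9 to the interferon-stimulated response element (ISRE) of target promoters, whereas interferon gamma binds the Ifngr receptor and acts through STAT dimers on the gamma-activated site (GAS). In the central nervous system microglia, infiltrating macrophages, astrocytes and T cells can all take part in the response.

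The deposited log2 values and the deposited scanner files did not match sample by sample. Each column of values had the same ranks as exactly 1 scanner file, but for 16 of the 28 columns that file was deposited under another sample: all 4 in T1_NPC, 3 of 4 in T1 and in T4, 2 of 4 in T0, T2 and T8, and 0 in T2_NPC. The results below take the labels of the value table. With the scanner files under their own deposited labels instead, limma called 0 of the 51 genes in every comparison. In that reading the median change of the 51 genes was 0.51, 0.71, 1.20 and 0.92 at 1, 2, 4 and 8 weeks against T0, with 2, 3, 31 and 13 genes at an unadjusted p under 0.05. Read from the rank-matched files, the arrays came from 3 scan sessions, and all 8 arrays of the transplanted groups were in session 3, which held no other group, so the session and transplantation cannot be told apart. Between 74.5% and 82.7% of spots were well above background on an array, with the lowest group range in T1_NPC (74.5% to 76.4%).

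Injury raised most of the interferon response genes, and they stayed high to 8 weeks. At 1 week 34 of the 51 rose and 2 fell, where 19.1% of all features rose and 25.1% fell (called at adjusted p under 0.05). At 2 weeks 36 rose and 4 fell (17.7% and 22.2% of all features), at 4 weeks 35 rose and 1 fell (17.5% and 21.0%), and at 8 weeks 35 rose and 0 fell (18.2% and 21.5%). The median log2 change of the 51 genes was 1.37, 1.66, 1.63 and 1.45 at 1, 2, 4 and 8 weeks, against -0.10, -0.05, -0.06 and -0.04 over all features. In 33 of the 51 genes all T1 arrays were above all T0 arrays, which was so for 17.4% of all features. The 4 comparisons share the T0 arrays. Within scan session 1 the median change was 1.07 at 1 week (1 T1 array against 2) and 1.45 at 8 weeks (2 against 2), and within session 2 it was 1.50 and 1.59.

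**Figure D1:**
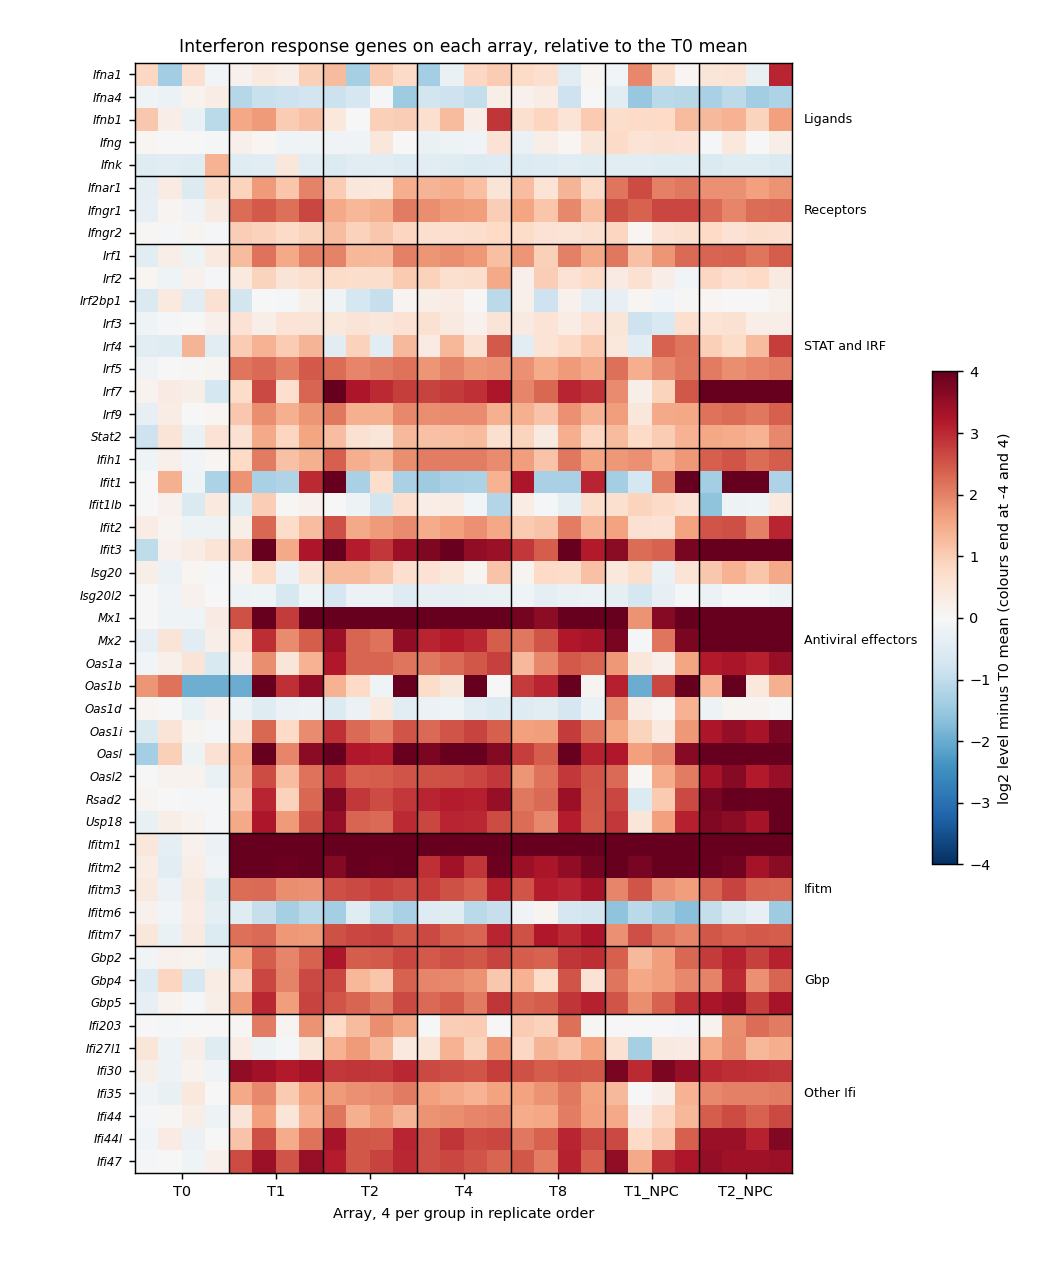
Log2 level of 49 of the 51 genes (rows, by role) on each of the 28 arrays (columns, 4 per group in replicate order) minus the gene's T0 mean, with colours that end at -4 and 4. Most rows are higher from T1 to T8 than in T0, and the rows of Ifna4, Ifng, Ifnk, Irf3, Irf2bp1, Isg20l2, Oas1d and Ifitm6 change little or are lower.

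The interferons gave little signal. Ifna1, Ifnb1 and Ifng were well above background on 4, 3 and 3 of the 28 arrays and Ifnk on 0, so the data give no fold change for them. Ifnb1 passed the test at T1 (adjusted p = 0.010) and T4 (adjusted p = 0.019), but only 1 array of each of those groups was above background and none in T0. Ifna4 was measured on every array. Its log2 level was 6.35, 6.27, 6.64 and 6.80 in the T0 replicates and 5.37, 5.61, 5.68 and 5.74 in T1, so the groups did not overlap. It fell by 0.91 at T1 (SE 0.28, adjusted p = 0.011) and by 0.75 at T2 (SE 0.28, adjusted p = 0.039), and neither the T4 nor the T8 difference passed the test.

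All 3 receptor chains on the array rose at every time, where 17.5% to 19.1% of all features rose. Ifngr1, the ligand-binding chain of the interferon gamma receptor, stood at 9.41, 9.86, 9.62 and 10.10 in T0 and at 12.00, 12.21, 11.94 and 12.43 in T1. The T1 arrays lay more than 1 log2 unit above every T0 array, and the difference of 2.40 (SE 0.20, adjusted p = 1.4e-09) fell to 1.59 at T2 and 1.45 at T8. Ifngr2, the second chain of that receptor, measured 13.24, 13.11, 13.28 and 13.11 in T0 and 14.17, 14.12, 13.95 and 14.06 in T1, with little spread in either group, and rose by 0.89 at T1 (SE 0.12, adjusted p = 2.3e-06). Ifnar1, a chain of the type I receptor, measured 8.07, 8.80, 7.92 and 9.10 in T0 and 9.37, 10.16, 9.60 and 10.47 in T1, a rise of 1.43 (SE 0.29, adjusted p = 2.5e-04). At T2 its arrays (9.49, 8.94, 8.90 and 9.92) overlapped those of T0, with a rise of 0.84 (SE 0.29, adjusted p = 0.022).

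Of the 11 transcription factors, 7 rose at each time point, among them Irf1, Irf5, Irf7 and Irf9, where 17.5% to 19.1% of all features rose. At T2 1 fell (22.2% of all features). Irf7, the factor that amplifies the type I response, had log2 levels of 10.78, 10.95, 10.85 and 9.92 in T0, of 11.35, 13.26, 11.29 and 12.94 in T1 and of 14.83, 13.87, 13.60 and 13.40 in T2. Every array of T1 to T8 was above every T0 array, and the T1 group split into 2 low and 2 high arrays. The change in Irf7 was 1.59 at T1 (SE 0.45, adjusted p = 0.0055) and 3.30 at T2, and it was still 2.55 at T8. Irf5, which acts downstream of Toll-like receptors in myeloid cells, moved with little spread, from 10.67, 10.83, 10.85 and 10.94 in T0 to 12.98, 13.08, 12.84 and 13.28 in T1, a rise of 2.22 (SE 0.13, adjusted p = 3.9e-12). That rise was 2.10, 1.83 and 1.63 at T2, T4 and T8. Stat2 and Irf9, partners in the type I complex, rose by 1.14 and 1.53 at T1. Irf1, a factor induced by interferon gamma, measured 6.40, 7.10, 6.64 and 7.26 in T0 and 8.13, 9.01, 8.37 and 8.87 in T1. Those arrays did not overlap, and Irf1 rose by 1.74 (SE 0.26, adjusted p = 9.3e-06) and Irf2, which competes with it for the same sites, by 0.61 at T1. Irf3, the factor activated directly by nucleic acid sensors, was 0.47 higher at T1 without passing the test (SE 0.22, adjusted p = 0.089). Irf2bp1 and Irf4 passed at no time.

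Of the 17 antiviral effectors, 11 rose at T1, 12 at T2 and 12 at T8 (19.1%, 17.7% and 18.2% of all features). At T2 1 effector, Isg20l2, fell (22.2% of all features). Mx1, a GTPase that blocks viral replication, had the largest change among them at T1. Its log2 level was 4.42, 4.26, 4.26 and 4.73 in T0, with 2 arrays above background, and 6.97, 10.31, 7.23 and 9.59 in T1. All T1 arrays lay above T0, but replicates 2 and 4 were more than 2 log2 units above replicates 1 and 3. The rise of 4.11 at T1 (SE 0.65, adjusted p = 1.5e-05) was 4.95 at T2, where the arrays drew together at 9.78, 9.07, 9.08 and 9.52, and 4.23 at T8. Oasl, an oligoadenylate synthetase-like protein, measured 2.14, 4.42, 3.28 and 4.09 in T0, where 1 array was above background, and 4.97, 8.14, 5.44 and 7.08 in T1. Ifit3, which acts with other Ifit proteins on viral RNA, measured 2.90, 4.08, 4.21 and 4.46 in T0 and 5.01, 8.43, 5.43 and 7.15 in T1, again with replicates 2 and 4 highest. Their fitted changes at T1 were 2.93 (SE 0.60) and 2.59 (SE 0.55), and T0 was near background for both. Oas1a, which makes the activator of RNase L, rose by 1.02 at T1 (SE 0.36, adjusted p = 0.024), by 2.50 at T2 and by 2.00 at T8. Rsad2 (viperin), Usp18, which removes Isg15 and dampens the receptor, and Oasl2 rose by 1.85, 2.25 and 1.85 at T1 and by 2.57, 2.44 and 2.32 at T8. Among the effectors that were not called at T1, Ifit1, Ifit1lb and Oas1d were at or near background on most arrays.

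**Figure D2:**
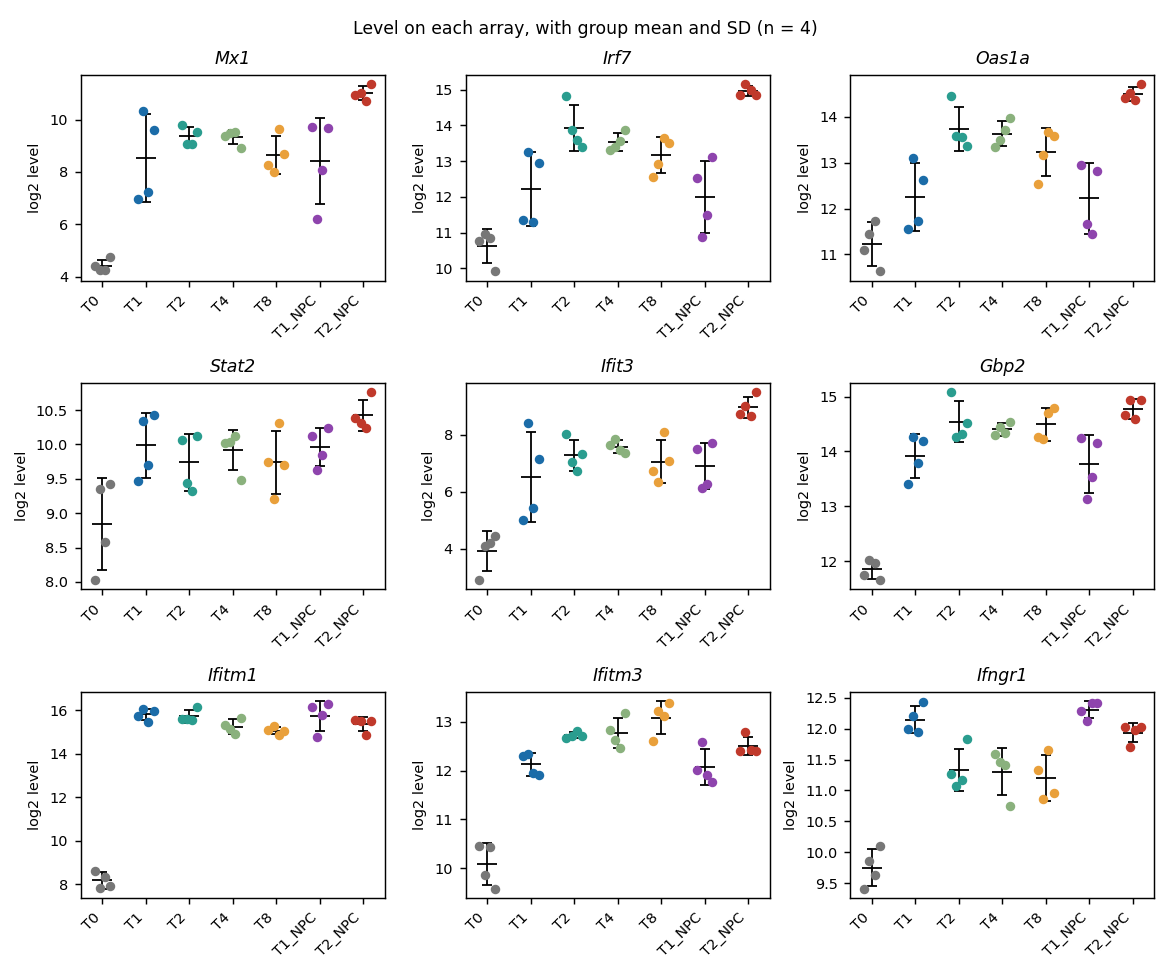
Deposited log2 level (y axis) of 9 of the genes in the 7 groups (x axis), with each array as a point and the group mean with its SD (n = 4) as a black bar. All T0 points lie below those of T1 to T8 for Mx1, Irf7 and Ifitm1, and in Mx1, Irf7, Oas1a and Ifit3 the T1 points fall into a low and a high pair.

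The Ifitm genes, small membrane proteins that restrict the entry of enveloped viruses, held the largest change of the 51. Ifitm1 stood at 8.62, 7.82, 8.34 and 7.93 in T0 and at 15.74, 16.07, 15.48 and 15.96 in T1. The difference of 7.63 log2 units (SE 0.26, adjusted p = 1.6e-16) placed it at rank 14 of 35469 features, and it was 7.54, 7.07 and 6.89 at T2, T4 and T8. Ifitm2 measured 11.17, 10.47, 11.15 and 10.74 in T0 and 15.14, 15.33, 14.80 and 15.35 in T1, and rose by 4.27 (SE 0.24, adjusted p = 1.2e-12), 4.02, 3.27 and 3.52 at the same times. For both genes the injured arrays lay more than 2 log2 units above T0. Ifitm3 rose by 2.05 at T1 and by 3.01 at T8, and Ifitm7 by 1.98 and 3.00. These last 2 profiles cannot be taken as separate, since they correlated at r = 0.991 over the 28 arrays, across groups and replicates together, and the probes may bind both transcripts. Ifitm6 went the other way: 6.45, 6.15, 6.55 and 5.92 in T0 and 5.79, 5.34, 4.95 and 5.20 in T1, a fall of 0.95 (SE 0.25, adjusted p = 0.0031), which at T8 was -0.36 and did not pass (adjusted p = 0.27).

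The 3 guanylate-binding proteins (Gbp) are GTPases that attack the vacuoles of intracellular pathogens and are typical targets of interferon gamma. All 3 rose at every time, where 17.5% to 19.1% of all features rose. Gbp2 measured 11.75, 12.02, 11.98 and 11.66 in T0 and 13.40, 14.26, 13.79 and 14.20 in T1, without overlap, and rose by 2.06 at T1 (SE 0.23, adjusted p = 1.0e-07) and 2.64 at T8. Gbp4 rose by 2.07 at T1 and by 1.30 at T8. Gbp5 was not well above background on any T0 array. Against the lowest signal that counted as above background, it was at least 3.50-fold higher at T1 (adjusted p = 3.5e-07) and at least 4.60-fold higher at T8 (adjusted p = 4.3e-08).

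Of the 7 other Ifi genes, 5 rose at T1 and 7 at T2 (19.1% and 17.7% of all features). The count at T2 includes Ifi203, which was above background on 1 of the 28 arrays. Ifi30, a lysosomal thiol reductase used in antigen presentation, measured 13.42, 12.99, 13.32 and 13.04 in T0 and 16.73, 16.56, 16.37 and 16.51 in T1, a rise of 3.35 (SE 0.13, adjusted p = 3.2e-15). No T1 array of Ifi30 came within 2 log2 units of T0. Ifi47, an immunity-related GTPase, measured 7.30, 7.41, 7.22 and 7.59 in T0 and 9.99, 10.79, 9.89 and 10.85 in T1, and rose by 3.00 (SE 0.31, adjusted p = 3.0e-08) and Ifi44l by 1.85 (SE 0.34, adjusted p = 1.0e-04). Ifi27l1, a mitochondrial protein, was not called at T1 (0.13, SE 0.35, adjusted p = 0.82) but rose by 1.19 at T2 and by 1.23 at T8.

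The sequences that interferon signals act on can be read in the promoters. Sequences from 250 bases before to 50 after the transcription start came from RefSeq (build GRCr8) for 42 of the 51 genes. The ISRE core was searched as TTTCNNTTTC or, on the other strand, GAAANNGAAA, and stood in 21 of the 42 (50%) against 3.92% of all 33469 rat promoters. These stretches are shown because they hold that core in genes whose levels are given here, and each runs 5′ to 3′ on the gene's strand, with the core, including overlapping copies, in capitals.
Irf7, chr1:205800068-205800107, minus strand: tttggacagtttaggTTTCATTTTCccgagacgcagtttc
Oas1a, chr12:41330413-41330452, plus strand: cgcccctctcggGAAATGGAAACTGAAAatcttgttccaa
Ifit3, chr1:241527267-241527306, plus strand: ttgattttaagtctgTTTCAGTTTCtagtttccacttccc
Ifi44, chr2:243303842-243303881, minus strand: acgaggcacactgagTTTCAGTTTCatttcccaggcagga
Gbp2, chr2:234005681-234005720, plus strand: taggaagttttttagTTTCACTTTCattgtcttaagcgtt
Gbp5, chr2:233910928-233910967, plus strand: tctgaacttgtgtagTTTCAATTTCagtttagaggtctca
Ifitm2, chr1:205482357-205482396, minus strand: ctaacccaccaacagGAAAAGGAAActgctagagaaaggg
Ifitm3, chr1:205541778-205541817, minus strand: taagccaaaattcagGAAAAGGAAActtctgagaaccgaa
Ifitm7, chr11:46606701-46606740, plus strand: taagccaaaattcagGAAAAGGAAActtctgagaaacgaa

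The Ifitm3 and Ifitm7 stretches are near copies, and their promoters were 72.8% identical over 246 aligned bases although the genes lie on different chromosomes. By role, the core stood in 3 of 3 Gbp promoters, 3 of 4 Ifitm, 9 of 13 antiviral effector, 3 of 6 other Ifi, 2 of 5 interferon, 1 of 8 transcription factor (Irf7) and 0 of 3 receptor promoters. Mx1 and Oasl had no match in this window. The GAS core, searched as TTCNNNGAA (its own reverse complement), stood in 10 of the 42 (23.8%) against 8.87% of all promoters, and 6 promoters held both. The genes with the ISRE core changed by a median of 1.85 at T1, 2.44 at T2 and 2.32 at T8. Those without it changed by 1.36, 0.89 and 0.89, with 21 genes in each set. The set without the core held all 3 receptors, 7 of the 8 transcription factors and the dim Ifnb1, Ifng, Ifnk, Oas1d and Irf4. The set with the core held the dim Ifit1lb and Ifna1. At T2, 17 of the 21 with the core and 12 of the 21 without it rose, where 17.7% of all features rose. The part of the core in these differences was not tested.

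**Figure D3:**
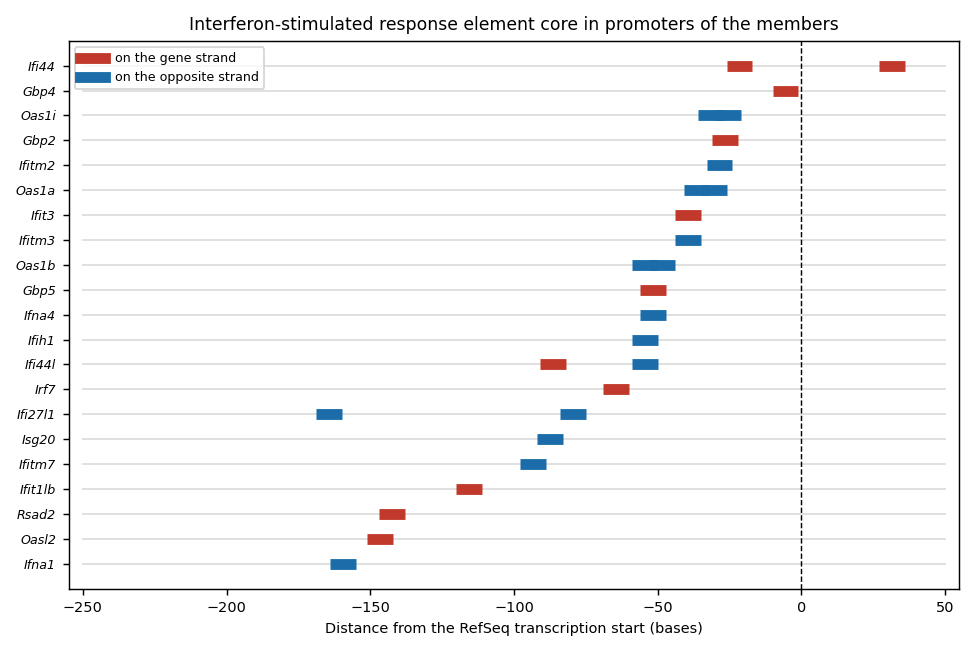
Position of each ISRE core match (x axis, bases from the RefSeq transcription start, dashed line) in the 21 promoters that hold one (y axis), coloured by whether TTTCNNTTTC is read on the gene's strand or the opposite one. A match of Ifi44 at 27 to 36 bases is after the start, and all others shown lie before it.

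Genes of the same pathway outside the name rule are described from lists drawn up with earlier results of these data known. They therefore give no independent test. Of 27 other interferon-stimulated genes on the array, 22 rose and 0 fell at T1 (19.1% and 25.1% of all features), with a median change of 1.60. The counts were 24 and 0 at T2 (17.7% and 22.2%), and 25 and 0 at T8 (18.2% and 21.5%). Among them Cxcl10, a chemokine that draws T cells, measured 7.81, 8.31, 8.04 and 7.09 in T0 and 9.67, 11.96, 9.75 and 10.65 in T1, all above T0, and rose by 2.69 (SE 0.55, adjusted p = 3.0e-04). Tap1, the peptide transporter of antigen presentation, rose by 3.01 (SE 0.35, adjusted p = 2.7e-07). Of 10 nucleic acid sensors and adaptors, 7 rose and 1 fell at each time, where 17.5% to 19.1% of all features rose and 21.0% to 25.1% fell. Tlr7, the receptor for single-stranded RNA, rose by 2.49 at T1 (SE 0.14, adjusted p = 8.8e-13), and Traf3, an adaptor of the type I pathway, fell by 0.56 (SE 0.14, adjusted p = 0.0016). All 7 kinases and inhibitors of the pathway rose at T1, among them the phosphatase Ptpn6 by 2.93 and the feedback inhibitor Socs1 by 0.82.

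Cell type markers moved with injury too, and over all features 19.1% rose and 25.1% fell at T1. All 8 markers of microglia and macrophages rose at T1 (median change 2.51), and their mean level lay between 8.75 and 8.93 in T0 and between 11.55 and 12.20 in T1. All 8 T cell markers rose (median 2.16), from 4.33 to 4.83 in T0 to 7.09 to 7.77 in T1, and Cd3e, Cd2 and Cd5 were above background on no T0 array. Of 6 neuronal markers 5 fell (median -1.48), 4 of 5 oligodendrocyte markers fell, and 3 of 4 neutrophil markers rose, all at T1. There limma called 0 of 5 natural killer cell and 0 of 3 B cell markers, with 0 and 0 at an unadjusted p under 0.05. At T2 3 of the 5 natural killer cell markers rose (17.7% of all features), with a median of 0.85. Their mean level was 3.69 to 4.76 in T0 and 4.99 to 5.75 in T2. At T4 and T8 limma called 0 of the 5, with medians of 0.48 and 0.70 and with 0 and 1 at an unadjusted p under 0.05. In these whole-tissue samples more cells of a type and more RNA per cell cannot be told apart, and the part of these markers in the interferon results was not tested.

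Between consecutive times few of the 51 genes moved. From T1 to T2, 1 rose and 1 fell (0.815% and 0.665% of all features). Oas1a measured 11.56, 13.09, 11.73 and 12.62 in T1 and 14.44, 13.57, 13.56 and 13.36 in T2, a rise of 1.48 (SE 0.36, adjusted p = 0.036), whereas Ifngr1 fell by 0.81 (SE 0.20, adjusted p = 0.044) to 11.26, 11.07, 11.17 and 11.83. In Oas1a and in Ifngr1 the T1 and T2 arrays did not overlap. Each call was lost without some single arrays, with a count of 0 to 3 genes over the arrays left out. From T2 to T4 limma called 0 of the 51 genes (0.0761% of all features) with 3 at an unadjusted p under 0.05, and from T4 to T8 it called 0 (0.0902%) with 0.

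Between the first and the last time, 3 of the 51 rose and 4 fell (5.45% and 4.42% of all features). Ifitm3 rose by 0.96 (SE 0.21, adjusted p = 0.0032), and Ifitm7 (1.02) and Ifi27l1 (adjusted p = 0.048) rose too. Ifngr1 fell by 0.95 (SE 0.20, adjusted p = 0.0028), Ifi30 by 0.85 (SE 0.13, adjusted p = 1.2e-04), Ifitm2 by 0.75 and Irf5 by 0.59. The highest mean of the 4 injured times fell at 1 week for 14 genes, at 2 and 4 weeks for 13 each and at 8 weeks for 11, and of the 17 antiviral effectors 1 peaked at 1 week, 5 at 2, 8 at 4 and 3 at 8 weeks. As a description, the lowest T8 array of Ifitm3 (12.60) was above the highest T1 array (12.34).

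The antiviral effectors spread more within the 1 week groups than within any other group. The mean log2 level of the 17 genes was 6.82, 8.50, 7.12 and 8.20 in the T1 replicates and 8.22, 6.65, 7.47 and 8.67 in T1_NPC, against 8.02, 8.12, 8.35 and 8.07 in T4. Replicate 2 of T1 was the highest T1 array in 15 of the 17 genes, and replicate 4 was among the highest pair in all 17. The median SD within the group was 0.85 in T1 and 0.86 in T1_NPC, against 0.22 (T4) to 0.52 (T8) in the other 5 groups, and that of all features lay between 0.19 and 0.32 in every group. Beside this, the mean of the microglia and macrophage markers in T1 was 11.78, 12.13, 11.55 and 12.20 and that of the T cell markers 7.35, 7.77, 7.09 and 7.72, in replicate order. In T1_NPC the T cell marker mean ranged over 2.74 log2 units, more than the antiviral mean (2.02). The microglia and macrophage mean ranged over 1.20 there. Of the T1 arrays, replicate 1, with the lowest antiviral mean, was in scan session 1. The others, 1 low and 2 high, were in session 2. Within the groups of the time course, Oasl was 1.14 higher in session 2 than in session 1 (adjusted p = 0.011) and Mx1 0.73 higher (adjusted p = 0.10), and the part of the session in this spread was not tested.

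**Figure D4:**
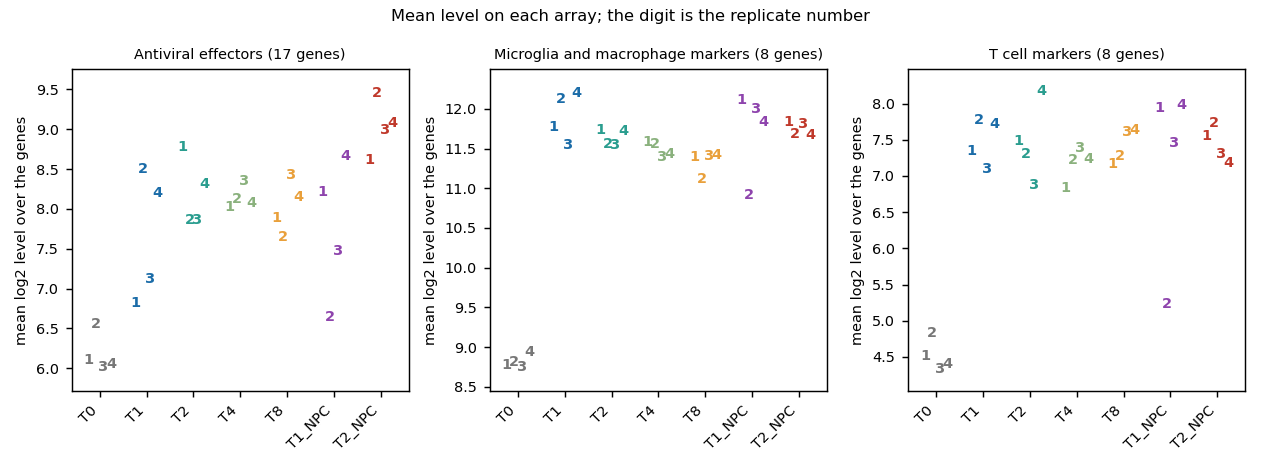
Mean log2 level (y axis) of the 17 antiviral effectors, the 8 microglia and macrophage markers and the 8 T cell markers on each array, by group (x axis), with the replicate number as the symbol. In the antiviral panel T1 runs from 6.82 to 8.50 and T1_NPC from 6.65 to 8.67, while the T4 arrays lie between 8.02 and 8.35, and replicate 2 of T1_NPC is the lowest of its group in all 3 panels.

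With NPC given straight after injury, 3 of the 51 genes were called at 1 week, no larger a share than over all features. Of T1_NPC against T1, 2 were higher and 1 lower (5.45% and 6.46% of all features), and the median change was -0.07 against -0.01 over all features. The higher genes, Oas1d and Ifng, were above background on 0 of the 8 arrays and have no fold change. Ifi35, an interferon-induced leucine zipper protein, measured 11.03, 11.45, 10.56 and 11.13 in T1 and 10.82, 9.50, 9.79 and 10.93 in T1_NPC, so the groups overlapped. It was 0.78 lower (SE 0.24, adjusted p = 0.035). Ifnar1 was higher on all 4 T1_NPC arrays (10.61, 11.07, 10.48 and 10.58) than on any T1 array without passing the test (0.79, SE 0.29, adjusted p = 0.075). All 4 T1_NPC arrays were on 1 slide of their own. With slide as a random block 1 of the 51 genes, Oas1d, was higher and 0 were lower (2.77% and 3.53% of all features). Of the 7 listed kinases and inhibitors 2 were higher and 0 lower without that block (5.45% and 6.46% of all features). With it 2, Socs1 and Socs3, were higher (2.77%). Without the block 0 of the 10 sensors and adaptors were called, and of the 27 other interferon-stimulated genes 0 were higher and 1 lower. Of the cell type markers, the endothelial Cldn5 was 0.51 higher and the muscle gene Acta1 0.66 lower. Neither was called with slide as a random block. The mean of the 4 endothelial markers was 8.14 to 8.40 in T1 and 8.46 to 9.11 in T1_NPC. Of the 4 muscle markers 3 had a positive change (median 0.57), and their mean was 5.99 to 6.27 in T1 and 6.26 to 6.73 in T1_NPC. The mean of the 4 neutrophil markers, of which limma called 0, was 5.70 to 5.97 and 6.17 to 7.12. The part of the markers in these differences was not tested.

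Replicate 2 of T1_NPC stood apart. Its T cell marker mean was 5.24 against 7.94, 7.45 and 7.98 on the other arrays of the group, its microglia and macrophage mean 10.92 against 12.12, 12.00 and 11.83, and its neuron mean 10.29 against 9.14, 9.73 and 9.42. Without it 2 genes were higher and 0 lower, Ifi35 was not called, and the median change was 0.16.

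At 2 weeks more of the 51 genes stood above the injured cord without cells, though few passed the test. Of T2_NPC against T2, 3 genes were higher and 0 lower (4.62% and 4.85% of all features). The change was positive in 40 of the 51 genes (16501 of all 35469 features), with a median of 0.51 against -0.03 over all features. Of the 51 genes 20 had an unadjusted p under 0.05, as had 8604 of the 35469 features. In 15 genes all T2_NPC arrays were above all T2 arrays (9.97% of all features), and in 1, Ifngr2, all were below (9.40%).

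Ifnar1 and Ifi44 were among the genes that passed. Ifnar1 measured 9.49, 8.94, 8.90 and 9.92 in T2 and 10.30, 10.30, 10.11 and 10.26 in T2_NPC, a rise of 0.93 (SE 0.29, adjusted p = 0.042). Ifi44, a GTP-binding interferon-induced protein, measured 12.73, 12.04, 12.29 and 11.97 in T2 and 13.03, 13.22, 12.95 and 13.24 in T2_NPC, a rise of 0.85 (SE 0.25, adjusted p = 0.032). In both genes the groups did not overlap. The 4 T2_NPC arrays, too, were on 1 slide of their own, and with slide as a random block both calls were lost (adjusted p = 0.072 for Ifnar1 and 0.11 for Ifi44). In that fit limma called 0 of the 51 genes (2.04% of all features were higher and 2.53% lower), with 13 at an unadjusted p under 0.05. The effectors Ifit3 (1.69, SE 0.55, adjusted p = 0.056), Mx2 (1.65, SE 0.61, adjusted p = 0.089) and Mx1 (1.64, SE 0.65, adjusted p = 0.11) had larger differences that did not pass. The 4 Mx1 arrays of T2_NPC, of which the highest was 11.36, all lay above the highest of T2 (9.78). So did those of Irf7, at 14.85, 15.16, 14.99 and 14.85 above a highest T2 level of 14.83.

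**Figure D5:**
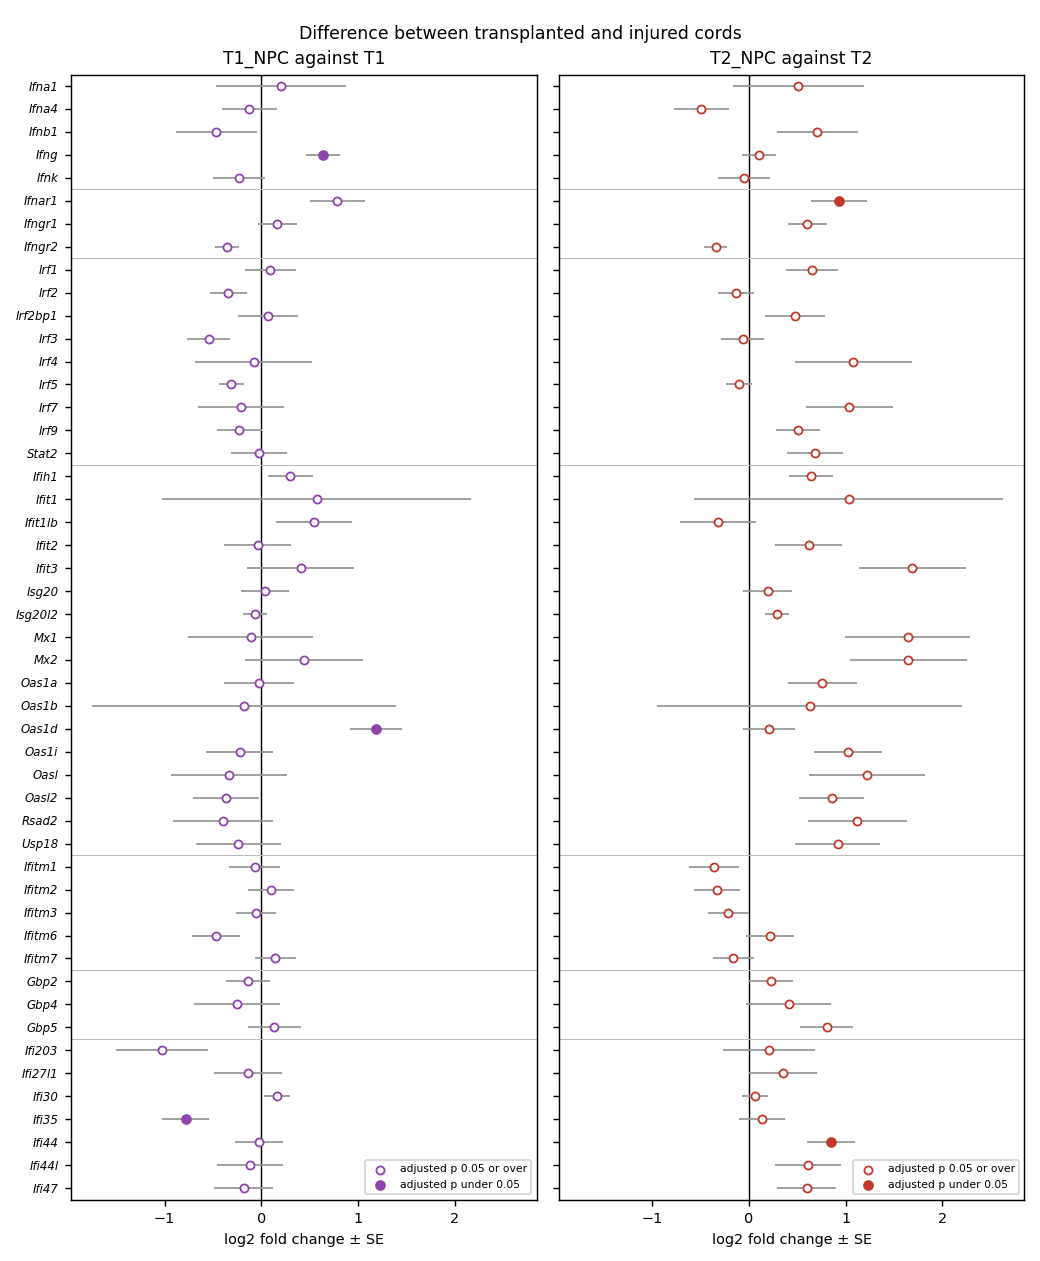
Log2 difference with its SE (x axis) of T1_NPC against T1 (left) and of T2_NPC against T2 (right) for 49 of the 51 genes (y axis, by role), with filled points for adjusted p under 0.05. On the right 38 of the 49 points lie above 0 and 2 are filled, and on the left the points lie around 0 with a median of -0.08.

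Of the 27 other interferon-stimulated genes, listed with earlier results of these data known, 7 were higher in T2_NPC and 0 lower (4.62% and 4.85% of all features). The median of the 27 was 0.41, and the higher genes were Parp9, Pml, Tap1, Cmpk2, Adar, Trim25 and Irgm. With slide as a random block 2 of the 27, Parp9 and Pml, were called higher (2.04% of all features). Parp9, which takes part in interferon signalling, measured 10.49, 9.51, 9.57 and 10.19 in T2 and 11.21, 11.41, 11.07 and 11.26 in T2_NPC, without overlap, a rise of 1.30 (SE 0.30, adjusted p = 0.0080). Adar, the RNA-editing enzyme that marks the cell's own RNA, had not passed the test after injury (0.55 at T2, adjusted p = 0.11) and was 1.01 higher in T2_NPC than in T2 (SE 0.27, adjusted p = 0.021). Limma called 0 of the 8 microglia and macrophage markers and 0 of the 8 T cell markers, with 1 in each list at an unadjusted p under 0.05. Their mean levels were 11.54 to 11.73 in T2 and 11.67 to 11.84 in T2_NPC for the former, and 6.87 to 8.17 and 7.18 to 7.73 for the latter. Some markers of other cell types were called higher in T2_NPC. They were 2 of 5 of oligodendrocytes (Mbp by 1.43 and Mobp by 0.70), 1 of 4 of endothelium (Cldn5 by 0.52) and 1 of 4 of skeletal muscle (Myh4). Myh4 was above background on 0 T2 arrays and 1 T2_NPC array, so it has no fold change. With slide as a random block only Mbp of these was called. The mean of the oligodendrocyte markers was 14.73 to 14.96 in T2 and 15.16 to 15.29 in T2_NPC, and that of the endothelial markers 7.73 to 8.25 and 8.42 to 8.46, without overlap in either list. The median change was 0.05 over the 5 oligodendrocyte markers, of which 3 were positive. It was 0.45 over the endothelial and -0.01 over the muscle markers. The part of these markers in the interferon results was not tested.

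The scan session moved with this comparison. Between sessions 2 and 1, within the groups of the time course, 16 of the 51 genes were higher and 4 lower. Over all 35469 features 6235 were higher and 7390 lower (38.4% called). The median difference was 0.15 for the 51 genes and -0.02 over all features. Among the higher genes were Ifnar1 by 0.79 and Mx2 by 0.79 (adjusted p = 0.011). Ifit3 and Mx1 were 0.87 (adjusted p = 0.054) and 0.73 (adjusted p = 0.10) higher in session 2 without passing, and Ifi44 differed by 0.13 (adjusted p = 0.55) and Irf7 by 0.09. The size of this effect in session 3 was not tested, since it held no array of a group without NPC. The 3 calls were lost when some single arrays were left out, and 0 genes were called without replicate 2 or 3 of T2 or without replicate 1, 2 or 4 of T2_NPC. With only the arrays whose 2 deposited forms matched, 4 of T2_NPC against 2 of T2, 24 genes were higher and 2 lower (10.5% and 10.3% of all features). In a fit of T2 and T2_NPC alone 10 were higher and 0 lower (4.20% and 3.50%).

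The transplant effects at 1 and 2 weeks were not shown to differ. In the test of the difference between them limma called 0 of the 51 genes (0.299% of all features), with 9 at an unadjusted p under 0.05, and the median difference was -0.56 against 0.00 over all features. For Mx1 the difference was -1.75 (SE 0.91, adjusted p = 0.50).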

How the data were processed

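RNA of 28 rat spinal cord segments was hybridised with Cy3 label to Agilent Whole Rat Genome arrays and read with Feature Extraction 10.7.1.1, per the labels. The authors corrected the background by Agilent's method and quantile normalized the arrays, and the deposited value table holds log2 values from 1.20 to 19.0. The deposited scanner files hold the processed signal, an intensity, and flags. These arrays have no depth, and their number limits the precision.

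The value table was joined to gene names by spot number: 1639 control spots were dropped, 43379 spots were averaged to 41012 probes and these to 35469 features. The genes, pathway lists, markers and named genes were chosen with earlier results of these data known. Every member of the interferon, receptor and transcription factor roles is named, with the 3 largest called changes in each other role at T1, T8 and in both transplant comparisons, and genes called between consecutive times. Other genes named were chosen after their values were seen. A few members are in every count but are not reported here by name. One limma model (limma 3.58.1, R 4.3.3) with a mean per group over all 28 arrays gave moderated tests with Benjamini-Hochberg adjustment over the 35469 features. A gene was called at adjusted p under 0.05. A gene not well above background on any array of a group has only a bound there, the lowest signal flagged above background. The fit was tested on simulated data. Slide, scan session and flags came from the scanner file with the same ranks. No 2 columns were identical (highest r = 0.992). Differences between arrays of a group include any technical spread. Promoter sequences and current names came from RefSeq (GRCr8), where 50 of the 51 genes were found by symbol or synonym. Alternatives covered the scanner intensities, background correction, scaling, dim probes, the probe rule, blocks, the groups fitted, a fold threshold and leaving out each array.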

Additional observations from a re-analysis of the deposited data

Results flagged for a closer look

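Of 245 groups of 4 arrays checked over the 35 named genes, 16 had 1 array whose gap to the nearest other array was above Dixon's 95% critical ratio of 0.829, where chance gives about 12.25. In replicate 4 of T4, the only array of that group from scan session 1, 4 genes were flagged: Ifna4 at 6.78 (the others 5.57 to 5.78), Irf9 at 10.46 (10.92 to 10.93), Stat2 at 9.48 (10.02 to 10.12) and Ifng at 2.29 (1.45 to 1.58). In T2_NPC, Ifitm1 was 14.87 in replicate 3, and in replicate 2 Ifitm3 was 12.79 and Ifngr1 11.71. In T2, Ifitm1 was 16.15 and Irf2 8.31 in replicate 4. In T1_NPC, Irf9 was 9.51 in replicate 2 (10.57 to 10.71), the array whose cell markers stood apart, and Ifnb1 was 3.69 in replicate 4. In T0, Irf7 was 9.92 in replicate 4 (10.78 to 10.95). The remaining values were near background: Ifnk at 3.34 in T0 replicate 4 and 2.41 in T1 replicate 3, Irf4 at 3.19 in T0 replicate 3 and Oas1d at 1.95 in T1 replicate 2.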

How the results depend on the processing

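Counts of the 51 genes called at the 4 injured times against T0 stayed within 1.5 times under all alternatives but 1: with the scanner intensities under their deposited samples 0 genes were called in these 4 comparisons, nor in T2 against T1, T8 against T1 or either transplant comparison. The cause was not tested. There the direction turned for Ifna4 (0.0504 at T1, 0.12 at T2), Ifnb1 (-0.0220) and Irf2 (-0.14) at T1, Ifnar1 at T2 (-0.0270), Ifitm2 (0.58), Ifi30 (0.44) and Irf5 (0.17) in T8 against T1, and Oas1d (-0.70), Ifng (-0.36) and Ifi35 (0.21) in T1_NPC against T1. For T2 against T1 (2 genes in the reported fit) the count was 4 with the rank-matched scanner intensities, normexp or a fixed session block, 1 with a fixed slide block or a 2-fold threshold, and 0 with only the compared groups. For T8 against T1 (7) it was 2 with a 2-fold threshold. For T1_NPC against T1 (3) it was 9 with scaling to the 75th percentile and 1 with dim probes left out, a random slide block (correlation 0.173), only the compared groups or a 2-fold threshold. For T2_NPC against T2 (3) it was 8 with normexp, 6 with dim probes left out, 10 with only the compared groups, 26 with only the arrays whose files agreed, and 0 with a random slide block or a 2-fold threshold. The difference of the transplant effects gave 2 genes with scaling to the 75th percentile and 0 elsewhere. T4 against T2 and T8 against T4 gave 0 under every alternative run. Slide or session as fixed blocks could not be fitted for the transplant comparisons, nor T1_NPC on agreeing arrays, and the time course alone holds no transplanted group.

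Leaving out each replicate in turn gave 34 to 38 genes at T1, 36 to 39 at T2, 34 to 37 at T4, 32 to 35 at T8, 0 to 3 for T2 against T1, 5 to 7 for T8 against T1, 2 to 5 for T1_NPC against T1 (5 without its replicate 1), 0 to 3 for T2_NPC against T2, and 0 for T4 against T2, T8 against T4 and the transplant effect difference. The replicate numbers did not pair the samples: over 84 pairs with the same number the deviations correlated at -0.003 on average, and 19 pairs were above 0.1. With the replicate block the count for T2 against T1 was 0, and the other comparisons kept counts within 1.5 times. Of 2571 alternative values for the 118 called results of named genes, 2332 kept direction and side of the threshold, 228 kept direction only and 11 turned. The dim interferons are limited by signal over background.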
